A study of Mus musculus with 6 samples.

Results

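The cell cycle machinery was taken as the genes that the deposited annotation places in the KEGG cell cycle pathway, without 16 genes, which cover most cyclin-dependent kinase inhibitors, D cyclins, cyclin E1, the p53 and Mdm2 pair, and TGF-β signaling. This left 139 members among 78298 genes in the table. They were divided by known role into 19 replication genes, 34 genes of G1/S control, 59 mitotic genes and 27 checkpoint genes. The question was how the level of each part of this machinery compared between RENCA cells that overexpress the water channel AQP1 and cells that carry the empty vector.

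RENCA is an established mouse line from a renal cortical adenocarcinoma. The oe-AQP1 cells carried a lentivirus with the mouse Aqp1 coding sequence under the ubiquitin C promoter, and the oe-NC cells carried the same vector without it. Puromycin (2 μg/mL, 14 days) was used to select the transduced cells of both groups, and 3 samples of each were harvested for RNA sequencing at 80 to 90% confluence. Aqp1 had 7713, 8545 and 7838 counts in oe-AQP1 samples 1 to 3 and 41, 25 and 45 counts in oe-NC samples 1 to 3 (log2 fold change [log2FC] = 7.70, adjusted p = 1.34e-10).

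Each library held between 18385714.02 and 21920898.67 expected counts. The members took 1.5673, 1.5673 and 1.5693% of the counts in oe-AQP1 samples and 1.585, 1.6044 and 1.5945% in oe-NC samples. Mitochondrially encoded genes took from 1.71 to 1.76% in oe-AQP1 and from 2.37 to 3.00% in oe-NC samples, and the part of this difference in the results was not tested. Of 11 epithelial and kidney markers, 10 were measured above the count filter, Pax8, Krt8, Krt18 and Cdh16 among them, whereas Epcam was at 0 in every sample; their summed level was 1510 to 1530 CPM (counts scaled to library size) in oe-AQP1 and 1850 to 2060 CPM in oe-NC. Macrophage markers (3 of 6 above the filter) summed to 47.9 to 51.2 against 55.2 to 58.4 CPM, with Adgre1 at 0 and Ptprc and Itgam at no more than 3 counts. The 3 above the filter did not move together. Csf1r had means of 3.3 CPM in oe-AQP1 and 9.43 CPM in oe-NC (log2FC = -1.51, adjusted p = 1.31e-05). Lyz2 was also lower (log2FC = -0.52, adjusted p = 0.000273), and Cd68 was not called (log2FC = 0.146, adjusted p = 0.0764). Fibroblast markers (2 of 5) summed to 12.6 to 13.9 against 18 to 26.4 CPM, and endothelial (1 of 4) and lymphocyte markers (0 of 5) to no more than 1.73 CPM in any sample. The part of these markers in the results was not tested. The oe-NC sample 1 stood apart from the other samples of its group: over the members its median distance from the group mean was 0.072 on the log2 scale, against 0.017 to 0.049 in the other 5 samples.

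The cell cycle copies the genome once in S phase and divides it in M phase. Origins of replication are licensed when the origin recognition complex, Cdc6 and Cdt1 load the Mcm2-7 helicase, and they fire when the Cdc7-Dbf4 kinase and cyclin-dependent kinases recruit Cdc45. Cyclin D-Cdk4/6 and cyclin E-Cdk2 release E2F factors from the retinoblastoma family to start S phase, cyclin B-Cdk1 drives mitosis, and the anaphase-promoting complex ends it by marking cyclin B and securin for destruction. Checkpoint kinases such as Atm, Atr and Chek1 halt this sequence when DNA is damaged, and the spindle checkpoint holds the anaphase-promoting complex back until every chromosome is attached. In bulk RNA, a change in the share of cells in one phase and a change in the RNA per cell cannot be told apart.

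Many genes of S phase carry E2F sites near their start, and many mitotic genes carry CCAAT boxes together with a cell cycle homology region. Promoter windows from RefSeq (GRCm38.p6, 250 bases before to 50 after the annotated start) were matched to 111 of the 139 members. The letters of an E2F site, searched on both strands as TTTGGCGC, TTTCCCGC, TTTCGCGC or TTTGCCGC, stood in 22 members (19.8%) and in 2.6% of the windows of all 27025 genes. They were found in 8 of 18 replication genes (44.4%), 7 of 24 G1/S genes (29.2%), 6 of 46 mitotic genes (13.0%) and 1 of 23 checkpoint genes (4.35%). CCAAT, which can share no more than its end base with the other letters searched, stood in 63 members (56.8%, against 41.1% of all genes), in 66.7% of replication and 63.0% of mitotic genes. TTTGAA, one form of the cell cycle homology region, stood in 27 members (24.3%, against 20.2%), and TTTAAA, the other form, in 15 (13.5%, against 14.9%). Among the mitotic genes with a window that were lower in oe-AQP1 cells, 7 of 10 held CCAAT and 4 held TTTGAA, against 2 and 3 of the 7 that were higher. These matches are letters in a window, and binding to them was not measured.

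The promoters printed here are those of the 3 mitotic members with the largest falls (Ccnb2, Cdc20 and Anapc5) and of the 2 replication members with the largest change in each direction (Ticrr, higher, and Mcm2, lower). Each run goes from 220 bases before to 30 bases after the annotated start, on the strand of the gene, with CCAAT (or ATTGG, its reverse), TTTGAA and TTTAAA in capitals. The full windows searched were, in GRCm38.p6, chr9:70421505-70421804 on the minus strand for Ccnb2, chr4:118437294-118437593 on the minus strand for Cdc20, chr5:122821293-122821592 on the minus strand for Anapc5, chr7:79659946-79660245 on the plus strand for Ticrr and chr6:88898731-88899030 on the minus strand for Mcm2.
Ccnb2: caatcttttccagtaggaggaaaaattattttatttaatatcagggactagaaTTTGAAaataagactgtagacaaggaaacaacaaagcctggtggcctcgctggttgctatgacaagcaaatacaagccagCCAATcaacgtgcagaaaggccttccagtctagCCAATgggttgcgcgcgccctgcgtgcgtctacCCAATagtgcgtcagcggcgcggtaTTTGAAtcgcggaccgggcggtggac
Cdc20: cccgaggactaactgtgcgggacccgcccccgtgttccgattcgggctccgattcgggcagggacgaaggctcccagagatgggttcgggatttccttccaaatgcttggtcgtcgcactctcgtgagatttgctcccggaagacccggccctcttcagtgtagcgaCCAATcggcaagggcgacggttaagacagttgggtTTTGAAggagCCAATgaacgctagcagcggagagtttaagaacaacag
Anapc5: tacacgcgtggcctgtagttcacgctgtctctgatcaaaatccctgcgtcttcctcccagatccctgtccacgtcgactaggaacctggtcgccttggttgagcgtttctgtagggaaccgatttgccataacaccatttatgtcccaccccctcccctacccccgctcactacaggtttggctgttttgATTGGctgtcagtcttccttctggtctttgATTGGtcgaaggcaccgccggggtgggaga
Ticrr: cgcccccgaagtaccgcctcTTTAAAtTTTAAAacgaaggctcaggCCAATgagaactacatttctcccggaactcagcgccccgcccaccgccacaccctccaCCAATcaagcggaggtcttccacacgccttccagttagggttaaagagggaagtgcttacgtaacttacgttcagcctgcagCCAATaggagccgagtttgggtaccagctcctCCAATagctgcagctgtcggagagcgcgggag
Mcm2: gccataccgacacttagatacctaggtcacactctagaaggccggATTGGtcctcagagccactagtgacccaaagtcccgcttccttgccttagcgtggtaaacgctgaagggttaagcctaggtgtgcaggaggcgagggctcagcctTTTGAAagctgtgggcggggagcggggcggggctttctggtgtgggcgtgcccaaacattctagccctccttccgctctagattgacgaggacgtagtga

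The Ccnb2 window held 3 CCAAT boxes and 2 copies of TTTGAA, and that of Cdc20 held 2 and 1. Anapc5 held 2 CCAAT boxes, both on the strand opposite to the gene, and no TTTGAA. Ticrr, which moved the other way in the cells, held 4 CCAAT boxes and 2 copies of TTTAAA. Mcm2 held 1 CCAAT and 1 TTTGAA, and none of the 5 windows held the E2F letters.

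Across the whole machinery the levels were close in both groups of cells, and the calls went in both directions. Of the 139 members, 135 passed the filter on low counts and were tested with limma-voom among 15522 genes. Smc1b and Wee2 (0 to 2 counts) and Ccna1 and Ccnb3 (0 counts in every sample) did not pass. At an adjusted p under 0.05, 47 of the 135 (34.8%) were called, against 32.5% of all genes tested. There were 20 higher in oe-AQP1 (14.8%, against 16.0% of all genes) and 27 lower (20%, against 16.6%). The samples of the groups did not overlap for 32 members that were higher and 33 that were lower, where over all genes this held for 47.3%, 23.5% higher and 23.8% lower. A total of 64 members had an unadjusted p under 0.05.

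No member passed the study's second threshold, an absolute log2FC above 1, which 5.23% of all genes passed (4.39% higher and 0.844% lower). The members' log2FC ran from -0.56 to 0.86, with a median of 0.0 and quartiles of -0.13 and 0.11, against quartiles of -0.17 and 0.19 over all genes. A log2FC beyond 0.5 in size was found for 6 members (4.44%), against 16.3% of all genes. For 128 members (94.8%) the 95% interval of the change lay within 1.5-fold in either direction, against 65.0% of all genes. The members also had more counts, with a median level of 78.0 CPM against 24.3 CPM for all genes. Among genes with a mean of at least 10 CPM, 34.8% of 132 members and 40.2% of 9755 genes were called.

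**Figure D1:**
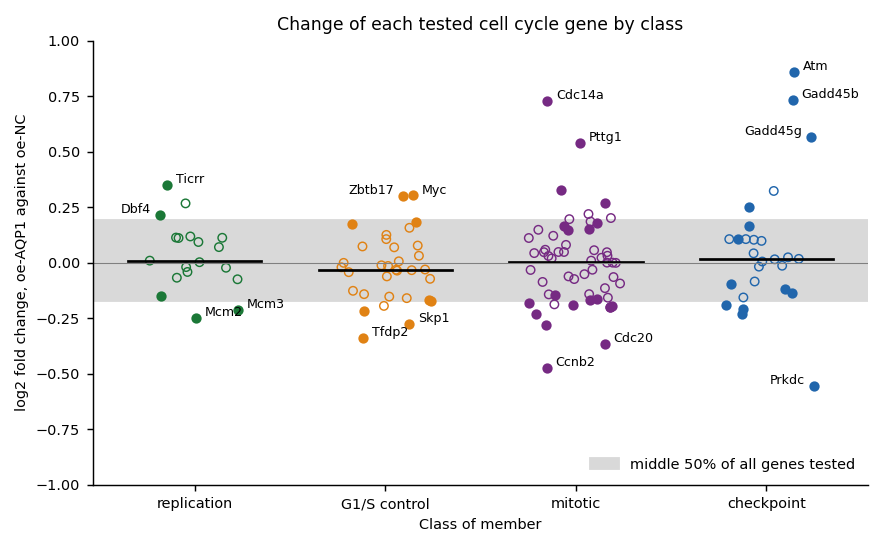
Log2FC of oe-AQP1 against oe-NC cells for each of the 135 tested members, in columns by class; each point is a gene, filled where it was called at an adjusted p under 0.05 and open where it was not, the 4 called genes with the largest changes of each class are named, the black bars are class medians and the gray band spans the middle 50% of all genes tested. All points lie between -0.56 and 0.86, and the class with the widest range is the checkpoint class. Its quartiles (-0.108 and 0.106) lie closer together than those of the mitotic class (-0.143 and 0.114).

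By class, 5 of 19 replication genes were called (26.3%, 2 higher and 3 lower) and 9 of 33 tested genes of G1/S control (27.3%, 4 and 5). In the mitotic class it was 20 of 56 tested (35.7%, 8 and 12), and in the checkpoint class 13 of 27 (48.1%, 6 and 7). Of all genes tested, 32.5% were called, 16.0% higher and 16.6% lower. Among genes with a mean of at least 10 CPM, a level that 132 of the 135 tested members reached, 40.2% were called. Only the checkpoint class lay above that share. Without oe-NC sample 1, 40.1% of all genes tested were called. The calls were then 3 higher and 5 lower in the replication class and 9 and 12 in G1/S control. In the mitotic class they were 12 and 16, and in the checkpoint class 7 and 8. Without any 1 of the oe-AQP1 samples, 4 mitotic genes were higher and 3 or 4 checkpoint genes lower. In these fits 2 or 3 genes of G1/S control were higher, as without oe-NC sample 2 or 3. The share of all genes called was 22.7 to 23.7% without 1 oe-AQP1 sample. It was 26.8% without oe-NC sample 2 and 28.5% without oe-NC sample 3. The class medians over all samples were 0.01, -0.03, 0.00 and 0.02 on the log2 scale. Of the 6 members beyond a log2FC of 0.5 in size, 4 were checkpoint genes and 2 were mitotic genes. Among the 47 calls, 29 were made in each of the 14 alternative fits, and 18 were lost in at least 1 of them. No called member changed sign in any alternative.

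**Figure D2:**
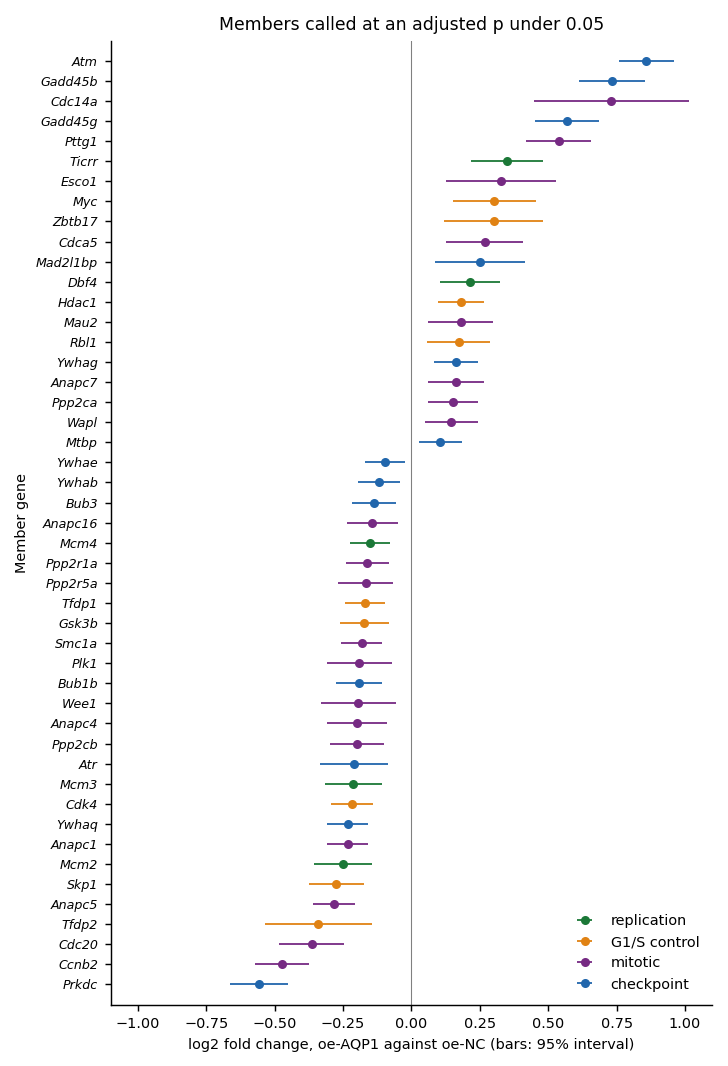
Log2FC of the 47 called members, ordered by value, with the 95% interval as a bar on each point; color marks the class. Prkdc and Ccnb2 are at the lower end, and Atm, Gadd45b and Cdc14a at the upper end.

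In length-corrected levels (TPM, counts divided by gene length and scaled to the same total in each sample, computed here), the members with the highest means in oe-NC cells were Pcna, the sliding clamp of DNA polymerase (660 ± 16.3 TPM, SD, n = 3), Ywhaq, a 14-3-3 adaptor protein (540 ± 10.3), Gadd45a (506 ± 35.6) and Cdk4 (482 ± 5.76). The means of Ywhaq and Gadd45a, and of Gadd45a and Cdk4, differed by less than the SD of Gadd45a. Ywhae (415 ± 3.00), Rad21 (384 ± 5.32), Cdc20 (359 ± 33.7) and Myc (342 ± 49.4) followed, and the SDs of Cdc20 and Myc spanned their neighbours. The tested member with the lowest level was Cdc14a (1.17 ± 0.0981 TPM). Pcna and Gadd45a were not called, and Ywhaq and Cdk4 fell.

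**Figure D3:**
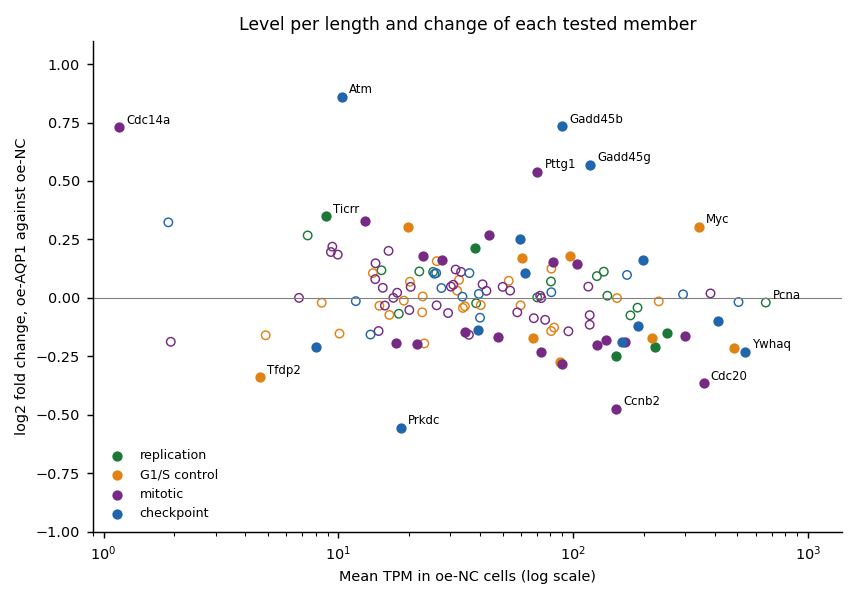
Log2FC of each tested member (vertical axis) against its mean level in oe-NC cells in TPM (horizontal axis, log scale), with classes in color and filled points for called members. The changes beyond 0.5 belong to Cdc14a, Atm, Prkdc, Pttg1, Gadd45b and Gadd45g, and Pcna is at the highest level with a log2FC near 0.

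Among the replication genes, helicase subunits fell and firing factors rose, each for part of its group. Of the 6 subunits of the Mcm2-7 helicase, which unwinds DNA at the fork, 3 fell and the other 3 were not called, with a median log2FC of -0.11. Mcm2 had 261, 254 and 265 CPM in oe-AQP1 samples 1 to 3 and 333, 297 and 299 CPM in oe-NC samples 1 to 3. The means were 259.9 ± 5.42 and 309 ± 20.4 CPM (SD, n = 3), a fall of 1.19-fold (log2FC = -0.25, SE 0.05, adjusted p = 0.00295). Mcm3 fell by 0.21 (adjusted p = 0.0064) and Mcm4 by 0.15 (adjusted p = 0.00561) on the log2 scale. The values for Mcm6, Mcm7 and Mcm5 were -0.08, -0.04 and 0.01, with adjusted p between 0.15 and 0.896. The oe-NC sample 1 was the highest sample for the 6 subunits together: their mean log2 level was 0.12 above the mean of all 6 samples there, against 0.03 in the other oe-NC samples and -0.06 to -0.05 in the oe-AQP1 samples. Without it, Mcm2 still fell by 0.20 and Mcm3 by 0.16 on the log2 scale, both called.

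Ticrr and Dbf4 were the 2 genes that rose among those that the division by role placed in the replication class. Ticrr had 31.4, 30.3 and 29.5 CPM in oe-AQP1 samples 1 to 3 and 24.3, 24.5 and 22.9 CPM in oe-NC samples 1 to 3. The means were 30.4 ± 0.946 and 23.9 ± 0.842 CPM (SD, n = 3), a rise of 1.27-fold (log2FC = 0.35, SE 0.06, adjusted p = 0.00128). Ticrr (also called treslin) brings Cdc45 to origins under the control of cyclin-dependent kinases, and all 3 oe-AQP1 samples were above all 3 oe-NC samples. Dbf4 had 109, 116 and 120.0 CPM in oe-AQP1 samples 1 to 3 and 95.4, 102 and 100 CPM in oe-NC samples 1 to 3. The means were 115 ± 5.44 and 99.3 ± 3.58 CPM (SD, n = 3), a rise of 1.16-fold (log2FC = 0.21, SE 0.05, adjusted p = 0.0072). Dbf4 is the activating subunit of the Cdc7 kinase. With Cdc7 and Cdc45 (log2FC = 0.07, adjusted p = 0.236), all 4 genes grouped here as firing factors had a positive log2FC, with a median of 0.16.

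None of the 6 subunits of the origin recognition complex was called, and the largest value among them was that of Orc1 (log2FC = 0.27, 95% interval 0.05 to 0.48, adjusted p = 0.0607). The licensing factors were not called either: Cdc6 had a log2FC of -0.02 (adjusted p = 0.821) and Cdt1 one of 0.11 (adjusted p = 0.196). Pcna had 399, 404 and 406 CPM in oe-AQP1 samples 1 to 3 and 386, 420.0 and 421 CPM in oe-NC samples 1 to 3 (log2FC = -0.02, 95% interval -0.11 to 0.07). Its groups overlapped.

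**Figure D4:**
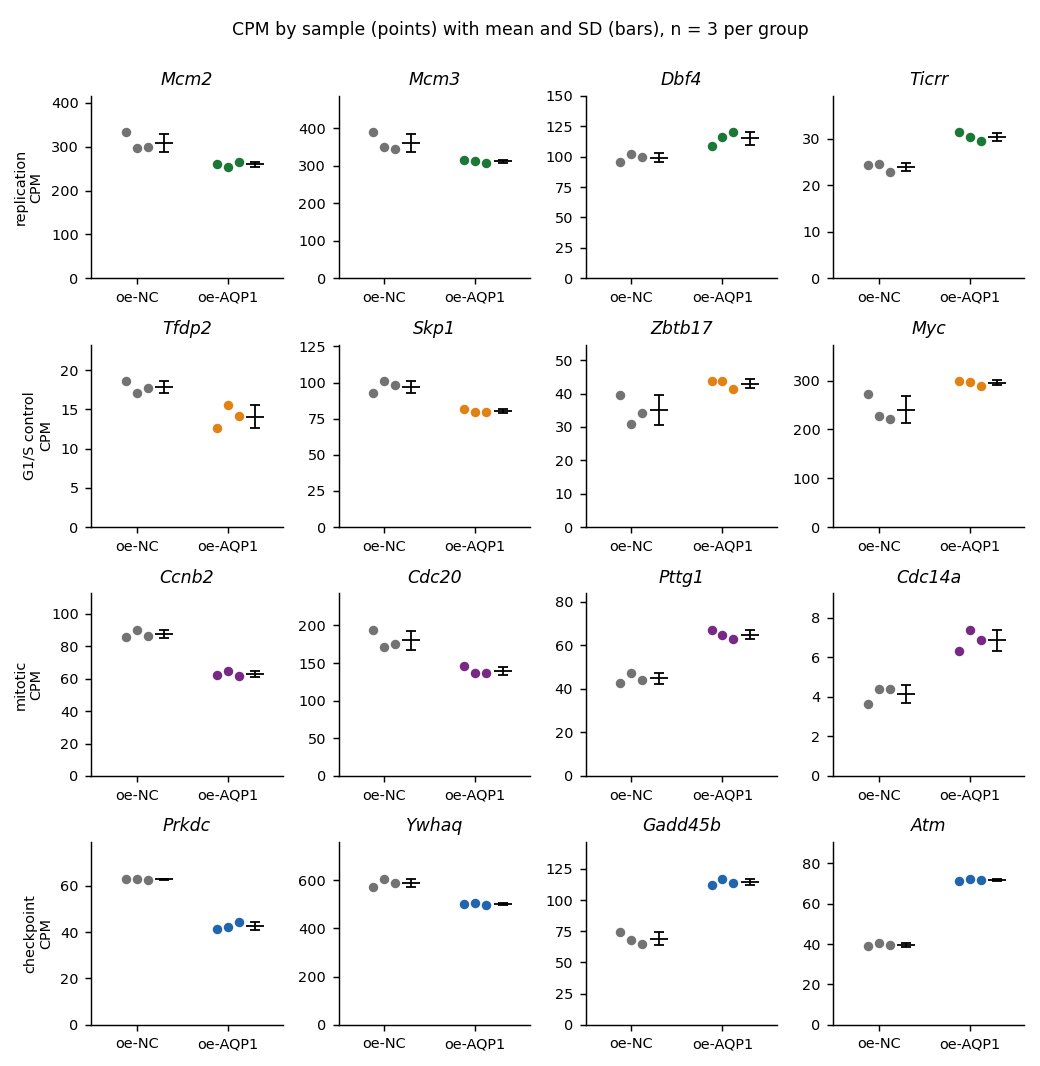
CPM in each sample (points) with the mean and SD (bars, n = 3 per group) for the called members with the 2 largest falls and the 2 largest rises of each class, 1 row of panels per class; each vertical axis starts at 0. In each panel the 3 oe-AQP1 samples lie on one side of the 3 oe-NC samples.

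In G1/S control, 4 of 33 tested genes rose and 5 fell (27.3% called, against 32.5% of all genes), and no log2FC exceeded 0.34 in size. The cyclins and kinases of G1 and S were grouped with 2 of their regulators, the phosphatase gene Cdc25a and the inhibitor gene Cdkn2d. The rule had kept Cdkn2d. This group had 1 call among 9 tested (11.1%, against 32.5% of all genes). This was Cdk4, the kinase partner of D cyclins, which had 370.0, 363 and 371 CPM in oe-AQP1 samples 1 to 3 and 416, 426 and 440.0 CPM in oe-NC samples 1 to 3 and fell by 0.22 on the log2 scale (SE 0.03, adjusted p = 0.000945). Antisense overlap touches this value, since 18.8% of the exon bases of Cdk4 overlap Tspan31 on the other strand and the library strand is not stated. Cdk2 (-0.03), Ccna2, the gene of cyclin A2 (-0.02), and Ccne2, the gene of cyclin E2 (-0.20, adjusted p = 0.0571), were not called. The 9 values, those of the 2 regulators among them, were all below 0, the closest to 0 at -0.01. With 1 sample left out, the log2FC reached 0.035 for Cdk7, 0.034 for Ccnh, 0.021 for Cdkn2d and 0.018 for Ccna2. The mean log2 level of the group, relative to all samples, was -0.042 to -0.025 in the oe-AQP1 samples. It was -0.029 in oe-NC sample 1, inside that range, and 0.075 and 0.057 in oe-NC samples 2 and 3.

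The dimerization partners of E2F fell. Tfdp2 had 12.6, 15.6 and 14.1 CPM in oe-AQP1 samples 1 to 3 and 18.6, 17.1 and 17.7 CPM in oe-NC samples 1 to 3. The means were 14.1 ± 1.5 and 17.8 ± 0.769 CPM (SD, n = 3), a fall of 1.27-fold (log2FC = -0.34, SE 0.09, adjusted p = 0.0137). This call was lost without oe-AQP1 sample 1 or 3, with an adjusted p of up to 0.0609. Tfdp1, the more abundant partner, fell by 0.17 on the log2 scale (adjusted p = 0.0028) and was called in every alternative fit. None of the 5 E2F genes was called, and E2f1, an activator of S phase genes, had a log2FC of -0.14 (adjusted p = 0.0954). In the retinoblastoma family, Rb1 had -0.16 (adjusted p = 0.203) and Rbl1, the gene of p107, rose by 0.17 on the log2 scale (adjusted p = 0.027). The call of Rbl1 was lost without any 1 of the oe-AQP1 samples or oe-NC sample 3 (adjusted p up to 0.0991).

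Myc, a transcription factor that drives entry into the cycle, rose. Myc had 299, 298 and 289 CPM in oe-AQP1 samples 1 to 3 and 273, 227 and 222 CPM in oe-NC samples 1 to 3. The means were 296 ± 5.35 and 241 ± 28.0 CPM (SD, n = 3), a rise of 1.23-fold (log2FC = 0.30, SE 0.07, adjusted p = 0.00672). The lowest oe-AQP1 sample was above the highest oe-NC sample, which was sample 1, and the log2FC was 0.40 without that sample. Over the fits that left out 1 sample, the log2FC of Myc ran from 0.245 to 0.397 and stayed called. Zbtb17 (Miz1), a partner through which Myc represses genes, rose by 0.30 on the log2 scale (adjusted p = 0.0169), a call lost without oe-AQP1 sample 1 or 2 or oe-NC sample 2 or 3 (adjusted p up to 0.0679). Hdac1, a histone deacetylase that works with the retinoblastoma family, rose by 0.18 (adjusted p = 0.00486). Skp1, a core subunit of the SCF ubiquitin ligase, fell by 0.27 (adjusted p = 0.00114), with 14.9% of its exon bases under the opposite-strand gene Gm73582. The kinase gene Gsk3b, whose product marks cyclin D for destruction, fell by 0.17 (adjusted p = 0.0085).

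Among the mitotic genes, Ccnb2 and Cdc20 had the largest falls and Cdc14a and Pttg1 the largest rises. Ccnb2 had 62.3, 65.0 and 61.6 CPM in oe-AQP1 samples 1 to 3 and 85.9, 90.1 and 86.6 CPM in oe-NC samples 1 to 3. The means were 63.0 ± 1.80 and 87.5 ± 2.27 CPM (SD, n = 3), a fall of 1.39-fold (log2FC = -0.47, SE 0.04, adjusted p = 2.47e-05). Ccnb2 encodes cyclin B2, and every oe-AQP1 sample was below every oe-NC sample. Ccnb2 lies at chr9:70314966-70328874 (minus strand, GRCm39). Cyclin B1, the main cyclin partner of Cdk1, was not called (Ccnb1, log2FC = -0.12, adjusted p = 0.108), nor was Cdk1 (log2FC = 0.05, 95% interval -0.04 to 0.14). Plk1, a kinase of mitotic entry and spindle assembly, fell by 0.19 on the log2 scale (adjusted p = 0.0209), a call lost without any 1 of the oe-AQP1 samples (adjusted p up to 0.0823). Wee1, the kinase that holds Cdk1 inactive, fell by 0.19 (adjusted p = 0.0358), and it was not called without oe-AQP1 sample 2 or 3 or oe-NC sample 2 (adjusted p up to 0.149), nor with DESeq2 or without a low-count filter. Cdc14a, a phosphatase that opposes cyclin-dependent kinases, rose from a low level. Cdc14a had 6.32, 7.37 and 6.86 CPM in oe-AQP1 samples 1 to 3 and 3.62, 4.38 and 4.41 CPM in oe-NC samples 1 to 3. The means were 6.85 ± 0.523 and 4.13 ± 0.448 CPM (SD, n = 3), a rise of 1.66-fold (log2FC = 0.73, SE 0.13, adjusted p = 0.00164).

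Cdc20, which activates the anaphase-promoting complex (APC/C) in mitosis, fell. Cdc20 had 146, 137 and 137 CPM in oe-AQP1 samples 1 to 3 and 194, 171 and 176 CPM in oe-NC samples 1 to 3. The means were 139.8 ± 5.06 and 180.1 ± 12.2 CPM (SD, n = 3), a fall of 1.29-fold (log2FC = -0.37, SE 0.05, adjusted p = 0.000516). The oe-NC samples spread more than the oe-AQP1 samples. Without oe-NC sample 1, the highest of the 3, the log2FC was -0.31, and without oe-NC sample 2, the lowest, it was -0.40. Over the fits that left out 1 sample, the log2FC of Cdc20 ran from -0.40 to -0.31 and stayed called. Anapc5 had 171, 167 and 169 CPM in oe-AQP1 samples 1 to 3 and 206, 204 and 206 CPM in oe-NC samples 1 to 3. The means were 169 ± 2.36 and 205 ± 0.929 CPM (SD, n = 3), a fall of 1.22-fold (log2FC = -0.28, SE 0.03, adjusted p = 0.00016). Anapc1 fell by 0.23 (adjusted p = 0.000501), Anapc4 by 0.20 (adjusted p = 0.0113) and Anapc16 by 0.14 (adjusted p = 0.0246). All 4 encode subunits of the complex. Anapc7, another subunit, rose by 0.16 on the log2 scale (adjusted p = 0.0199). Over the 17 genes of the complex and its regulators, 5 fell, 1 rose and 11 were not called, with a median log2FC of 0.03. This was 35.3% called, against 32.5% of all genes and 40.2% of genes with a mean of at least 10 CPM. The calls of Anapc7 (adjusted p up to 0.0968) and Anapc16 (up to 0.111) were lost without any 1 of the oe-AQP1 samples and without oe-NC sample 3, and that of Anapc16 also without oe-NC sample 2. Neither was called with DESeq2, Anapc7 was not called without a low-count filter, and Anapc16 was not called with a replicate block.

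Pttg1 encodes securin, the inhibitor of separase that APC/C-Cdc20 destroys, and it rose. Pttg1 had 67.1, 64.7 and 63.1 CPM in oe-AQP1 samples 1 to 3 and 42.7, 47.4 and 44.2 CPM in oe-NC samples 1 to 3. The means were 65.0 ± 1.98 and 44.8 ± 2.40 CPM (SD, n = 3), a rise of 1.45-fold (log2FC = 0.54, SE 0.05, adjusted p = 3.54e-05). Pttg1 lies at chr11:43311071-43321000 (minus strand, GRCm39). The lowest oe-AQP1 sample was above the highest oe-NC sample, and 8.9% of the exon bases overlap Slu7 on the other strand. Separase itself (Espl1) had a log2FC of -0.09 (adjusted p = 0.14).

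Cohesin and its regulators had 5 genes higher and 1 lower among 19 tested (31.6% called, against 32.5% of all genes). Rad21, the cleaved subunit and the most abundant cohesin gene, was not called (log2FC = 0.02, 95% interval -0.06 to 0.10), and Smc1a, a core subunit, fell by 0.18 on the log2 scale (adjusted p = 0.00225). Besides Pttg1, the genes that rose were Esco1, an acetyltransferase that secures cohesin (log2FC = 0.33, adjusted p = 0.0182), Cdca5 (sororin), which protects it (log2FC = 0.27, adjusted p = 0.00881), Mau2, part of its loader (0.18, adjusted p = 0.0271), and Wapl, which releases it (0.15, adjusted p = 0.0277). Esco1 was not called without oe-AQP1 sample 2 (adjusted p = 0.0855). Mau2 and Wapl were not called without any 1 of the oe-AQP1 samples or without oe-NC sample 3, and Mau2 also without oe-NC sample 2 or without a low-count filter (adjusted p without 1 sample up to 0.1 and 0.108).

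Protein phosphatase 2A, which removes marks of mitotic kinases, had 3 genes lower and 1 higher among 9 (44.4% called, against 32.5% of all genes). The 2 catalytic subunits moved in opposite directions: Ppp2cb fell by 0.20 (adjusted p = 0.00633) and Ppp2ca rose by 0.15 (adjusted p = 0.0167) on the log2 scale. For Ppp2cb, 35.8% of the exon bases overlap Ubxn8 on the other strand. Ppp2r1a, the main scaffold subunit, fell by 0.16 (adjusted p = 0.006), and Ppp2r5a, a regulatory subunit, by 0.17 (adjusted p = 0.0155). The call of Ppp2ca was lost without oe-AQP1 sample 1 or 3 (adjusted p up to 0.0914), and that of Ppp2r5a without oe-AQP1 sample 2 or 3 (up to 0.0721).

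The checkpoint class held the largest changes of single genes. Over the whole class the median size of the log2FC was 0.106, against 0.143 in the mitotic class and 0.18 over all genes. Of its genes 14.8% lay beyond 0.5 in size, against 16.3% of all genes. Of the 8 genes of the DNA damage checkpoint, 3 rose, 2 fell and 3 were not called (62.5% called, against 32.5% of all genes). The median size of their log2FC was 0.38, against 0.18 over all genes tested. Atm, the kinase that senses DNA double-strand breaks, rose most. Atm had 71.3, 72.3 and 71.8 CPM in oe-AQP1 samples 1 to 3 and 38.9, 40.5 and 39.4 CPM in oe-NC samples 1 to 3. The means were 71.8 ± 0.525 and 39.6 ± 0.853 CPM (SD, n = 3), a rise of 1.81-fold (log2FC = 0.86, SE 0.05, adjusted p = 2.50e-07). Atm lies at chr9:53348097-53448236 (minus strand, GRCm39). The 3 oe-AQP1 samples lay far above the 3 oe-NC samples, and the log2FC stayed between 0.85 and 0.87 when each sample was left out in turn. Prkdc, the catalytic subunit of the DNA-dependent protein kinase, of the same kinase family, fell. Prkdc had 41.3, 42.3 and 44.6 CPM in oe-AQP1 samples 1 to 3 and 63.1, 62.9 and 62.6 CPM in oe-NC samples 1 to 3. The means were 42.8 ± 1.71 and 62.8 ± 0.247 CPM (SD, n = 3), a fall of 1.47-fold (log2FC = -0.56, SE 0.05, adjusted p = 1.29e-05). Prkdc lies at chr16:15455698-15660099 (plus strand, GRCm39). Atr, the third kinase of the family, which responds to stalled forks, fell by 0.21 on the log2 scale (adjusted p = 0.0169), a call lost without oe-AQP1 sample 1 or 2 or oe-NC sample 2 or 3 (adjusted p up to 0.0712).

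Prkdc and Mcm4 lie next to each other on chromosome 16 in opposite orientation, Mcm4 from 15440211 to 15455264 on the minus strand and Prkdc from 15455698 to 15660099 on the plus strand, so that their annotated starts lie side by side and the genes run apart. Both fell, by 0.15 for Mcm4 and by 0.56 for Prkdc on the log2 scale. The 95% intervals of the 2 changes were -0.22 to -0.08 and -0.66 to -0.45, and they did not overlap; the difference between the 2 changes was not tested.

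The kinases that act below Atm and Atr were not called: Chek1 had a log2FC of -0.01 (95% interval -0.17 to 0.14) and Chek2 one of -0.16 (-0.32 to 0.01). The 3 Gadd45 genes encode small stress-induced proteins that can bind Cdk1 and Pcna, and they did not move together. Gadd45b had 112, 117 and 114 CPM in oe-AQP1 samples 1 to 3 and 74.4, 67.7 and 64.5 CPM in oe-NC samples 1 to 3. The means were 114 ± 2.34 and 68.9 ± 5.08 CPM (SD, n = 3), a rise of 1.66-fold (log2FC = 0.73, SE 0.05, adjusted p = 4.18e-06). Gadd45g had 53.4, 53.5 and 52.2 CPM in oe-AQP1 samples 1 to 3 and 36.0, 33.9 and 37.3 CPM in oe-NC samples 1 to 3. The means were 53.0 ± 0.730 and 35.7 ± 1.70 CPM (SD, n = 3), a rise of 1.48-fold (log2FC = 0.57, SE 0.05, adjusted p = 2.05e-05). In both, the lowest oe-AQP1 sample was above the highest oe-NC sample. Gadd45a, the one with the highest level per length, had 233, 223 and 228 CPM in oe-AQP1 samples 1 to 3 and 242, 221 and 230.0 CPM in oe-NC samples 1 to 3 (log2FC = -0.02, 95% interval -0.11 to 0.08, adjusted p = 0.775), and its groups overlapped. Of its exon bases, 55.8% overlap another gene, E230016M11Rik. The position of Gadd45b was chr10:80764523-80768038 (plus strand) and that of Gadd45g chr13:52000714-52002508 (plus strand) in GRCm39.

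Among genes that the rule left out but that act on this checkpoint, Cdkn1a, the gene of the p21 inhibitor, fell by 1.27 on the log2 scale (adjusted p = 1.97e-07). Trp53 rose by 0.20 (adjusted p = 0.00954), and Mdm2 had a log2FC of 0.05 (adjusted p = 0.535).

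The spindle checkpoint had 2 genes higher and 2 lower among 12. This was 33.3% called, against 32.5% of all genes and 40.2% of genes with a mean of at least 10 CPM. Bub1b, the gene of the BubR1 subunit that inhibits APC/C-Cdc20, had 164, 168 and 170.0 CPM in oe-AQP1 samples 1 to 3 and 197, 190.0 and 187 CPM in oe-NC samples 1 to 3 and fell by 0.19 on the log2 scale (adjusted p = 0.0036). Bub3, its partner, fell by 0.14 (adjusted p = 0.0156), a call lost without any 1 of the oe-AQP1 samples (adjusted p up to 0.0828). Mad2l1bp (p31comet), which takes the checkpoint complex apart, rose (log2FC = 0.25, adjusted p = 0.0258). So did Mtbp (log2FC = 0.11, adjusted p = 0.0439), which the division by role used here counted with the spindle checkpoint. Both were lost without any 1 of the oe-AQP1 samples or without oe-NC sample 2 (Mtbp also without oe-NC sample 3), with DESeq2 and without a low-count filter (adjusted p without 1 sample up to 0.0999 and 0.165). Mtbp was also not called with a replicate block. The checkpoint kinases Bub1 (0.02) and Ttk (0.11) and the inhibitor Mad2l1 (0.01) were not called.

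The 14-3-3 proteins hold phosphorylated Cdc25 and other targets in the cytoplasm. Of their 7 genes, 3 fell, 1 rose and 3 were not called (57.1% called, against 32.5% of all genes). Ywhaq had 501, 507 and 497 CPM in oe-AQP1 samples 1 to 3 and 572, 606 and 589 CPM in oe-NC samples 1 to 3 and fell by 0.23 on the log2 scale (adjusted p = 0.000493), with 12.3% of its exon bases under Gm4419 on the other strand. Ywhag rose by 0.16 (adjusted p = 0.00665), so that these related genes moved in opposite directions. Ywhab fell by 0.12 (adjusted p = 0.0232) and Ywhae by 0.10 (adjusted p = 0.0427), and both calls were lost without any 1 of the oe-AQP1 samples or without oe-NC sample 2 or 3 (adjusted p up to 0.116 and 0.148). Ywhae was also not called with DESeq2, with library size as the only scaling, with at least 10 counts in every sample or with a replicate block. Sfn, a stress-induced 14-3-3 gene, was near the detection limit, with 23, 22 and 16 counts in oe-AQP1 and 18, 15 and 13 counts in oe-NC samples (95% interval of the log2FC -0.30 to 0.95), and a difference could not be detected at this depth.

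**Figure D5:**
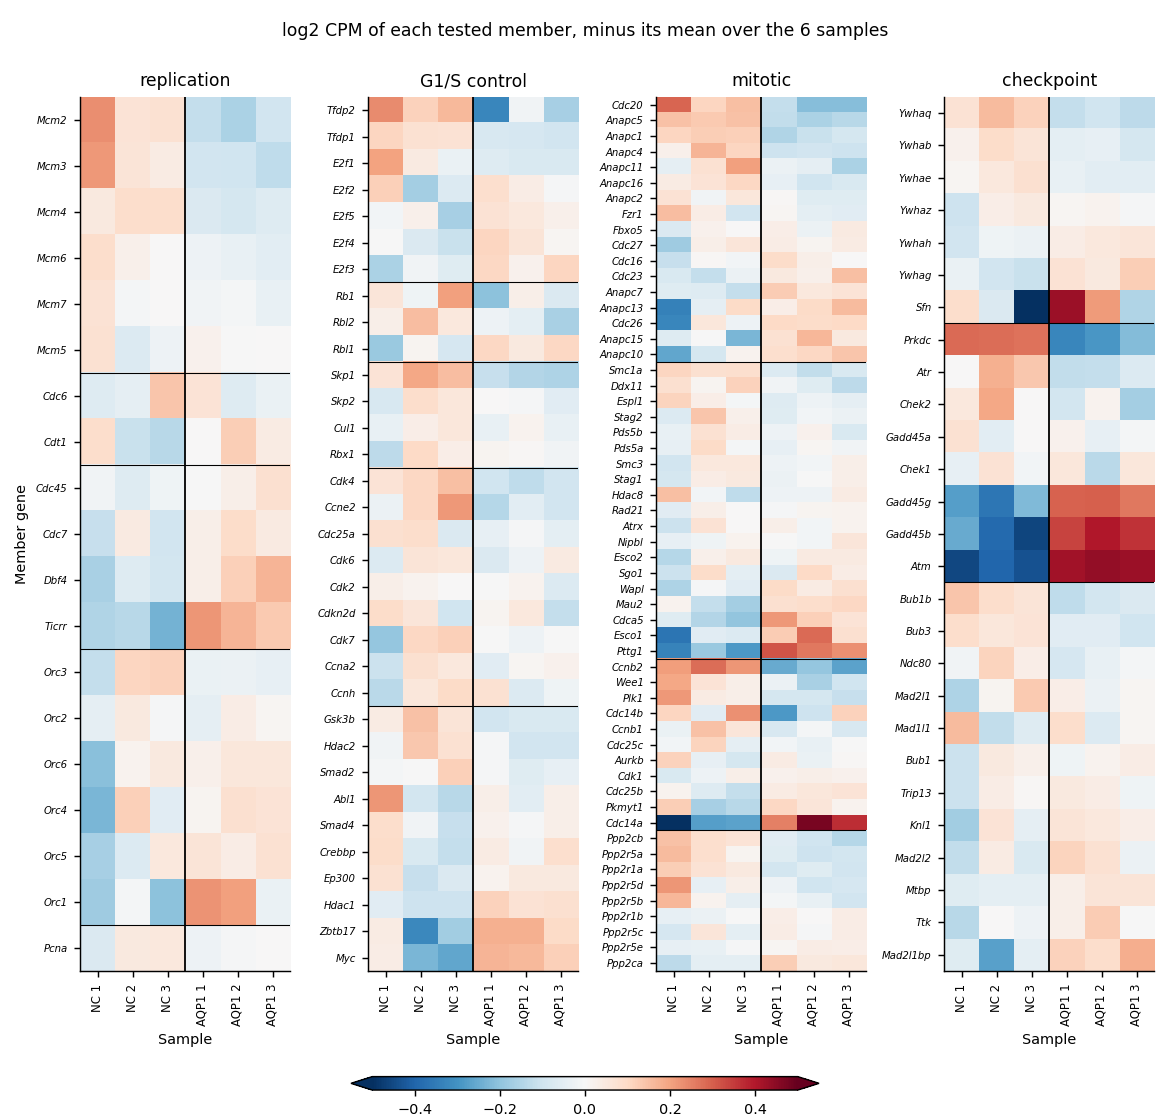
Log2 CPM of each of the 135 tested members in each sample, minus its mean over the 6 samples, in 1 panel per class with lines between role groups; columns are oe-NC samples 1 to 3 and oe-AQP1 samples 1 to 3. Rows of both colors occur in every panel, and oe-NC sample 1 differs from oe-NC samples 2 and 3 in many rows.

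The oe-NC sample 1 was the farthest from its group mean for 88 of the 135 members (65.2%), against 52.3% of all genes tested. Without it, 72 members were called (31 higher and 41 lower), beside 6456 of the 16085 genes then tested (40.1%). Without any 1 of the other samples, the number of members called was between 31 (without oe-AQP1 sample 2) and 41 (without oe-NC sample 2). The share of all genes called in these fits was between 22.7 and 28.5%. Calls in both directions were present in each of these fits.

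Genes of the same phases outside the pathway gave a further view. Of a widely used list of S phase genes, 35 were no members, and 7 of these rose (20%, against 16.0% of all genes) and 4 fell (11.4%, against 16.6%), with a median log2FC of -0.01. Rrm2, the ribonucleotide reductase subunit that makes DNA precursors, fell by 0.31 on the log2 scale (adjusted p = 7.88e-05), and Uhrf1, which maintains DNA methylation at the fork, by 0.19 (adjusted p = 0.0392). Brip1 and Rad51ap1, both of DNA repair by homologous recombination, rose by 0.35 (adjusted p = 0.00168) and 0.33 (adjusted p = 0.00312). Leaving out 1 sample moved the number that fell to between 1 and 11, the highest without oe-NC sample 1 and the lowest without any 1 of the oe-AQP1 samples.

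Of a list of G2 and M phase genes, 46 were no members, of which 15 fell (32.6%, against 16.6% of all genes) and 3 rose (6.52%, against 16.0%), with a median log2FC of -0.07. The mean log2 level of these 46 genes was below the mean of all samples in each oe-AQP1 sample (-0.04, -0.03 and -0.02) and above it in each oe-NC sample (0.02, 0.04 and 0.03). The largest falls were those of Pimreg (0.39, adjusted p = 0.00198) and Ncapd2, a condensin subunit (0.30, adjusted p = 0.00136), on the log2 scale. Gtse1, a microtubule-binding protein of G2 and S phase, rose by 0.39 (adjusted p = 0.00104) and Hjurp, the chaperone of centromeric histone, by 0.26 (adjusted p = 0.000237). The proliferation marker Mki67 had 440 ± 6.72 CPM in oe-AQP1 and 453 ± 7.67 CPM in oe-NC cells (SD, n = 3; log2FC = -0.04, adjusted p = 0.355), and Top2a, the DNA topoisomerase of dividing cells, had 544 ± 8.91 and 563 ± 9.50 CPM (log2FC = -0.05, adjusted p = 0.255). Leaving out 1 sample put the number that fell between 9 and 23, the highest without oe-NC sample 1 and the lowest without oe-AQP1 sample 1.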

How the data were processed

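RNA from 3 oe-AQP1 and 3 oe-NC samples of RENCA cells was sequenced in paired-end reads, and all 6 carry the same batch label. The authors deposited expected counts per gene, not scaled between samples; 52 of the 139 members had a fractional count in at least 1 sample (tolerance 0.005). The submitters' processing notes name fastp, HISAT2, featureCounts (Subread) and GRCm38 (mm10), whereas the paper gives GRCm39, so the build of the counts is unsure. Library strand is not stated. Gene positions, lengths and overlaps came from GENCODE M39 (GRCm39), in which 78168 of 78298 gene identifiers were found. The columns of group means were not used.

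Expected counts were rounded to whole numbers. Genes were filtered with edgeR's filterByExpr by group (15522 kept), scaled by TMM (factors 0.9933 to 1.006) and compared with limma-voom, following the paper's methods (limma 3.58.1, edgeR 4.0.16, R 4.3.3), with Benjamini-Hochberg adjustment over all genes tested. A call is an adjusted p under 0.05. CPM used the TMM factors. The fit was repeated with the quasi-likelihood test of edgeR, with DESeq2 1.42.0, sample quality weights, RLE scaling, library size alone, at least 10 counts in every sample, no low-count filter, a replicate block and leaving out each sample. Counts were simulated for this comparison (15218 genes, changed genes with at least 200 counts). On these, limma-voom called 84% of changes of 1.25-fold, 94% of 1.5-fold and 0.107% of unchanged genes (16 of 15018). The simulation changed 50 genes at each fold and held no outlying sample, whereas 32.5% of all genes were called in the data. The shares it gave may therefore not hold for the data.

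The labels call the samples biological replicates without naming separate cultures, so p-values measure the spread between these samples. Samples within a group differed by more than counting noise (chi-square per gene 1.71 to 11.4). Same-numbered samples did not deviate together (correlations 0.015, -0.02 and -0.073). Members, roles and gene lists were chosen with earlier results of these data known, and the roles of 2 genes (Atrx and Ddx11) were set after the file was read. Named genes were, in each class, the 4 largest falls and the 4 largest rises among those called, the gene with the highest level per length, and core members of each step whether called or not; in the S phase and G2/M lists, the 2 largest of each direction, Mki67 and Top2a. Other called members named beside them were chosen after their values were seen.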

Additional observations from a re-analysis of the deposited data

How the results depend on the processing

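The number of members called, beside the share of all genes called in that fit, was 50 with edgeR's quasi-likelihood test (32.7%) and 41 with DESeq2 (26.7%). It was 65 with sample quality weights (41.4%), 47 with RLE scaling (32.6%) and 53 with library size alone (32.6%). With at least 10 counts in every sample it was 52 (34.5%) and without a low-count filter 42 (13.4% of 34240 genes). With a replicate block it was 46 (31.1%). In each fit, 41 to 47 of these were among the 47 of the report. The replicate block ended the calls of Ywhae, Mtbp and Anapc16. Sample quality weights raised the replication genes that were higher to 4, the G1/S genes that were higher to 7 and lower to 8, and the S phase genes outside the pathway that were lower to 11, where DESeq2 gave 2. Leaving out 1 sample at a time gave 12 to 31 members higher and 19 to 41 lower, beside 22.7 to 40.1% of all genes called. By class this was 3 to 5 replication genes lower, 2 to 9 G1/S genes higher and 4 to 12 lower, 4 to 12 mitotic genes higher, and 3 to 8 checkpoint genes lower. In the lists outside the pathway it was 1 to 11 S phase and 9 to 23 G2/M genes lower. Each highest value came without oe-NC sample 1, and the cause was not tested.

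Among the named members, only genes near 0 and not called changed sign. With quality weights the log2FC was -0.002 for Rad21, -0.015 for Bub1, -0.048 for Mad2l1 and 0.01 for Gadd45a, and without a low-count filter -0.01 for Mcm5 and -0.015 for Mad2l1. With 1 sample left out, it ran from -0.072 to 0.018 for Ccna2, -0.073 to 0.074 for Mad2l1, -0.065 to 0.043 for Cdc6, -0.047 to 0.052 for Chek1, -0.025 to 0.05 for Mcm5, -0.005 to 0.034 for Rad21, -0.024 to 0.049 for Bub1, -0.052 to 0.014 for Gadd45a and -0.062 to 0.001 for Pcna. No other member chosen by the naming rule changed direction. Among members mentioned beside these, the log2FC with 1 sample left out ran from -0.098 to 0.021 for Cdkn2d. It ran from -0.124 to 0.035 for Cdk7 and from -0.084 to 0.034 for Ccnh. The named genes outside the members were not followed singly. The depth limits what can be said of Sfn, Cdc14a and the 4 members that were not tested.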
